A study of Mus musculus with 8 samples.

Results

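Small RNA of mouse sperm was examined at a pair of short loci, on chromosomes 10 and 18, of which some stretches match ribosomal RNA or a microRNA hairpin elsewhere in the genome and others have no annotated match. The members were the piRNA names whose first listed position, after sorting by chromosome as text and by start, lay inside chr10:82955090-82955420 or chr18:85697940-85698280 (mm10). The table of MC-LR and control libraries held 181 members at chromosome 10 and 159 at chromosome 18, together 340 of its 13450 names. The table of shRNA libraries held 199 and 172 members, together 371 of 17375 names. Of the members found in either table, 150 of 230 at chromosome 10 and 120 of 211 at chromosome 18 were in both.

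All 8 libraries came from sperm of Balb/c mice at post natal month 8. The MC-LR table compared 2 libraries of a control, lettered A and B, with 2 libraries after exposure to MC-LR. The other table compared 2 libraries with a negative-control shRNA with 2 libraries with an shRNA against Hsp90aa1. The labels name no dose, vector, route or number of animals, and the series' design text mentions 2 doses of MC-LR without saying which libraries had which. The labels do not state whether libraries A and B came from different animals. A p-value here therefore measures their spread alone, and that spread may be technical. Nor is it stated whether MC-LR A and MC-LR B had the same dose, so their spread may include dose. MC-LR is microcystin-LR, a toxin of cyanobacteria and an inhibitor of the phosphatases PP1 and PP2A. Hsp90aa1 is the gene of the chaperone HSP90 alpha. The level of Hsp90aa1 itself was not analysed here.

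Where a pair of values is given for a group, library A comes first. Values are RPM, reads of a name per fixed number of library reads, with totals of 4960467 to 14634370 reads. The deposited tables hold a part of each library that differed between groups. The listed names made up 38.1% and 35.2% of the reads in the controls and 12.5% and 11.7% under MC-LR. In the shRNA table they made up 27.7% and 32.3% in the negative control and 4.88% and 3.16% after the Hsp90aa1 shRNA. How names were chosen for the tables is not given in the sources used here. Group means lay within 1.5-fold of each other for 5 of the 13450 names of the MC-LR table and for 1 of the 17375 names of the shRNA table. No name was at 0 in any library. The tables therefore hold almost no names without a difference, and the share of all listed names called is given beside the first count of members in each comparison. Counts for single stacks are to be read against it too.

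Ribosomal RNA is made in the nucleolus as a long precursor that is cut into the 18S, 5.8S and 28S RNAs. Mature sperm translate little, and much of the ribosomal RNA of the germ cell is lost or cut as the sperm forms, so short ribosomal fragments are a usual part of sperm small RNA. piRNAs are small RNAs of germ cells that guide PIWI proteins, chiefly against transposable elements, and they often begin with U. A piRNA name in a catalogue is given to a sequence, and does not by itself show that the sequence was bound to a PIWI protein in these cells. MicroRNAs are cut from hairpins, and the mature strand guides repression of target transcripts.

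The members lay in separate blocks of overlapping names, called stacks here and numbered by position. No GENCODE M21 or RefSeq gene overlapped the chromosome 10 locus. The pseudogene Gm4799 ended 90 bases before it, and Chst11 began 30078 bases after it. Stack 1 (chr10:82955093-82955126) was on the plus strand and stacks 2 to 5 (chr10:82955134-82955192, chr10:82955206-82955263, chr10:82955268-82955358 and chr10:82955383-82955416) were on the minus strand. All 22 names of stack 1 in the MC-LR table were also listed on chromosome 17 at 39847548 to 39847579, and 118 of the 128 names of stack 4 at 39847449 to 39847530. That stretch lies within Rn18s-rs5, an 18S-related sequence of RefSeq, from base 1096 of its 1849, and on the strand of the long noncoding RNA Gm42418. GENCODE places the rRNA gene CT010467.1 on the other strand there. Stack 5 was listed nowhere on chromosome 17, and 13 of its 19 names in the MC-LR table were also listed on chromosome 6 at 3201474 to 3201495, where no gene is annotated. Stack 1 was listed on chromosome 6 as well, at 3201637 to 3201668, and so were 13 of the 128 names of stack 4, at 3201576 to 3201611.

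The stretch of chromosome 17 is shown because it is the sequence that the names of stacks 1 and 4 share. It is the Gm42418 transcript of GENCODE M21 at chr17:39847449-39847579 on the plus strand, with the bases covered by members in capitals. The capitals before the gap are stack 4, those after it are stack 1, and the 16 lower-case bases were covered by no member. Then come 4 names of stack 4 and the most abundant name of stack 1 in the MC-LR table, with base 1 and base 10 in capitals.
chromosome 17 copy: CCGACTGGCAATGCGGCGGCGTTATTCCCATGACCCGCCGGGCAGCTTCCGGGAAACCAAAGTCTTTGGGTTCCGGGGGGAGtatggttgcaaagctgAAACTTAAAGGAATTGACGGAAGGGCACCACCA
piR-mmu-18138755: AtgacccgcCgggcagcttccggga
piR-mmu-49787868: CgactggcaAtgcggcggcgtt
piR-mmu-51381271: CgactggcaAtgcggcggcgttatt
piR-mmu-48852643: CgactggcaAtgcggcggc
piR-mmu-34300681: CttaaaggaAttgacggaagggc
The last 3 names shown for stack 4 share their 5′ end and differ in length alone. Of the 118 stack 4 names with a sequence in the MC-LR table, 20 began with T and 21 had A as base 10. The stretch they cover is 18.3% T and 17.1% A. For stack 1 these counts were 5 and 12 of 22 names, over a stretch of 12.5% T and 40.6% A.

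The chromosome 18 locus is not where the annotation places Mir6236. No gene overlapped the chromosome 18 window, and its nearest gene was a pseudogene 17651 bases after it, so it is called the chromosome 18 locus here. All of its members were on the minus strand, in stack 1 (chr18:85697941-85697977), stack 2 (chr18:85698006-85698045) and stack 3 (chr18:85698223-85698268). Stack 3 is the part related to Mir6236, since 122 of its 124 names in the MC-LR table and 103 of 105 in the shRNA table were also listed over the 5′ part of that hairpin. Stack 1 was also listed on chromosome X at 4136329 to 4136361 and 4899402 to 4899434, for 33 of 33 names in the MC-LR table and 52 of 59 in the shRNA table, where no gene is annotated. Reads of a name listed at several places cannot be assigned to 1 of them.

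GENCODE and RefSeq put the Mir6236 hairpin at chr9:110281287-110281409, inside the RefSeq long noncoding RNA Gm39429. The members listed there ran from 110281280 to 110281325 in the MC-LR table, so that some began before the hairpin. With names that were no members, 149 listed names overlapped the hairpin in the MC-LR table and 141 in the shRNA table, between 110281272 and 110281350. The annotated mature microRNA lies further along, at chr9:110281353-110281371, and no listed name overlapped it in either table. The nearest of them ended 2 bases before it in the MC-LR table and 4 in the shRNA table.

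The levels were uneven along both loci, as the plots of summed RPM by position show. Stack 5 held 91.6% of the summed RPM of chromosome 10 members in the MC-LR table and 89.9% in the shRNA table, stack 4 held 7.11% and 8.40%, and stacks 1 to 3 the rest. At chromosome 18, stack 3 held 67.6% and 50.9% and stack 1 held 32.0% and 45.4%. Much of the RPM of stack 5 lay on a few names with a common 5′ end. Of its 6 different 5′ ends in each table, position 82955412 was that of 3 of 19 names in the MC-LR table, of 18 to 20 nt, and of 6 of 31 in the shRNA table, of 18 to 30 nt. These names carried 71.7% to 79.8% of its RPM in the MC-LR libraries and 64.8% to 76.4% in the shRNA libraries. The most used 5′ end of stack 4 carried at most 23.6% in the MC-LR table and 33.7% in the shRNA table, and that of chromosome 18 stack 3 at most 14.1% and 17.4%. Stack 4 had 36 and 33 different 5′ ends and chromosome 18 stack 3 had 22 and 21.

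**Figure D1:**
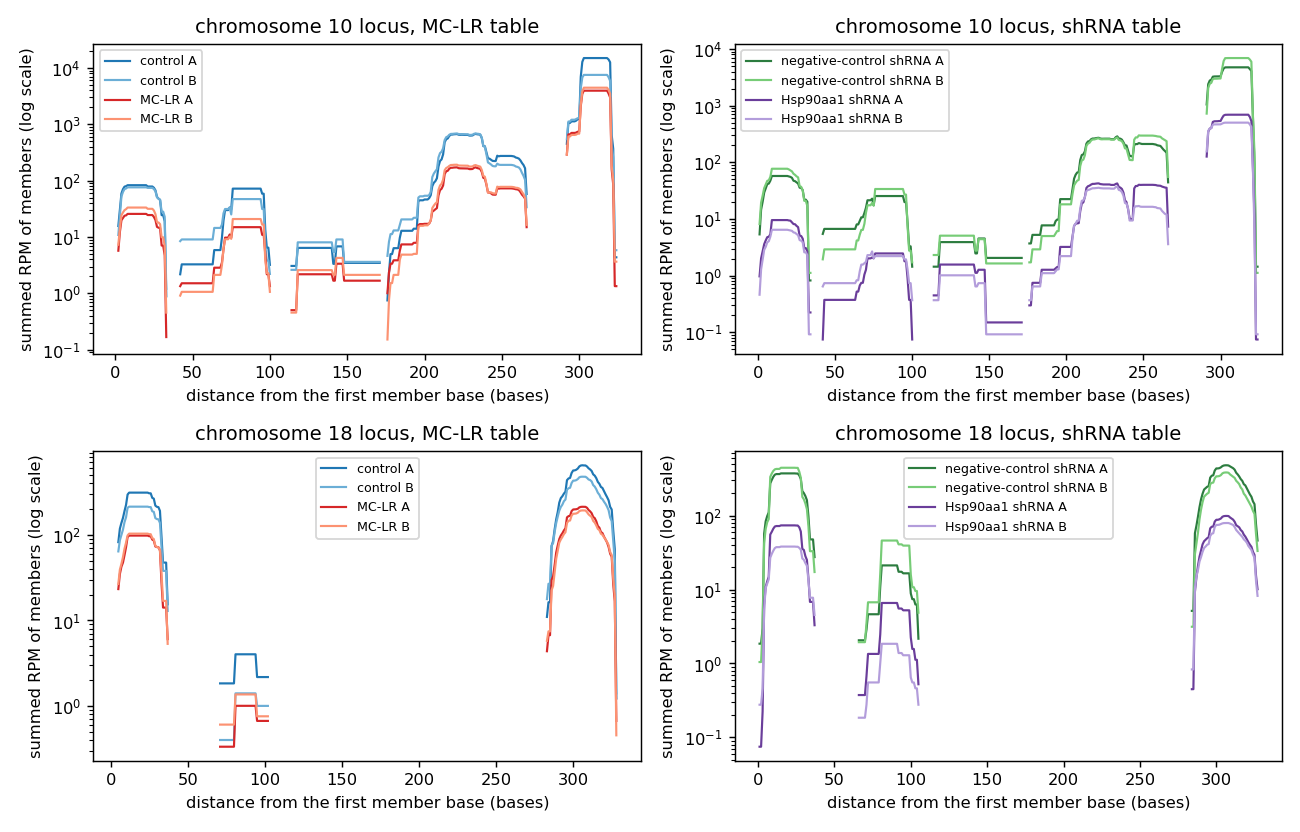
Summed RPM of the members over each base (log scale) against the distance in bases from the first member base, for the chromosome 10 locus (top) and the chromosome 18 locus (bottom) in the MC-LR table (left) and the shRNA table (right), 1 line per library. The 5 stacks of chromosome 10 and the 3 of chromosome 18 stand apart, and in the tall stacks the treated libraries lie below both of their controls.

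After MC-LR both loci were lower by about the same factor in the group means. The chromosome 10 members summed to 16105 and 8571 RPM in the controls and to 4250 and 4796 RPM under MC-LR, or 12338 ± 5327 against 4523 ± 386 (mean ± SD, n = 2 each), a 2.73-fold lower level. The controls differed from each other by more RPM than control B did from the MC-LR libraries, and without control A the fall was 1.90-fold. The chromosome 18 members summed to 961 and 690 RPM in the controls and to 311 and 297 under MC-LR, a 2.72-fold lower level. Without control A their fall was 2.27-fold. Without control B the falls were 3.56-fold at chromosome 10 and 3.16-fold at chromosome 18. The groups did not overlap at either locus. An exact two-sided permutation test gave p = 0.333 for each sum, the smallest value that 2 against 2 libraries allow. In libraries of whole sperm samples, fewer cells of a type and less RNA per cell cannot be told apart.

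Among single names, limma called 140 of the 180 tested chromosome 10 members and 92 of the 156 tested chromosome 18 members lower at an adjusted p under 0.05, where 73.1% of all tested names were called lower. In all 232 of 336 passed as lower, 104 did not pass, and none passed as higher, at an unadjusted p under 0.05 either, beside 2.37% of all names called higher. The groups did not overlap for 173 of 181 and 148 of 159 members, all lower in MC-LR, beside 92.6% of all listed names lower and 2.33% higher. The median log2 fold change was -1.24 at chromosome 10 and -0.92 at chromosome 18, and -1.17 over all names tested. Without MC-LR A the count fell to 105, and without MC-LR B to 109.

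Those falls are falls relative to the whole library. When each library was instead scaled to the sum of the listed names, the median of all names moved from -1.17 to -0.02, that of the chromosome 10 members to -0.12 and that of the chromosome 18 members to 0.11. On that scale limma called 0 members lower and 0 higher, with 11 lower and 4 higher at an unadjusted p under 0.05, beside 4.12% and 2.47% of all names. edgeR with TMM factors also called 0 in either direction (8 lower and 4 higher unadjusted; 3.01% and 2.37% of all names), as did DESeq2 (0 and 2 unadjusted; 4.13% and 3.28% of names with an adjusted p). In both comparisons the factors of edgeR with TMM and of DESeq2 were computed from the listed names alone, almost all of which were lower. They too therefore centre the list, and the median of all names under MC-LR was 0.0021 and 0.035 with them. A fall shared by the list cannot show on any of these scales. Relative to the list, 100 of 173 chromosome 10 members and 56 of 150 chromosome 18 members had a negative log2 fold change, beside 6598 of 12796 names in all.

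Stack 5 of chromosome 10 held the highest levels, and its short and long names moved by different amounts. piR-mmu-49575097, of 20 nt, was at 4963 and 2665 RPM in the controls and at 1170 and 1310 RPM under MC-LR (limma log2 fold change -1.55 with SE 0.37 and adjusted p = 0.00513). piR-mmu-49039860, 1 base shorter at its 3′ end, was at 5131, 2146, 1246 and 1469 RPM in the same order (-1.29, SE 0.42, limma adjusted p = 0.0206). Control A was the highest library for both, well above control B, and the MC-LR libraries were close to each other. Without MC-LR A the call on piR-mmu-49039860 was lost.

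Longer names of the same stack were nearly level between the controls. piR-mmu-31058506, of 26 nt, was at 605 and 577 RPM in the controls and 372 and 319 RPM under MC-LR (log2 fold change -0.78, SE 0.33, adjusted p = 0.0487 by limma). This call was lost without either MC-LR library. piR-mmu-32285630, of 28 nt, was at 451 and 542 RPM against 291 and 289 RPM and did not pass (-0.77, limma adjusted p = 0.0516). In both names the groups stood clearly apart, while the fold was small. Scaled to the list, these names had positive values of 0.82 and 0.83 (limma adjusted p = 0.177 and 0.194). The largest fall in the stack was that of piR-mmu-33737225, of 22 nt, from 87.9 and 63.3 RPM to 12.8 and 18.4 RPM (-2.21, limma adjusted p = 7.70e-04).

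Of the 14 names of 17 to 23 nt in stack 5 all 14 passed as lower, and of the 5 names of 24 nt or more 3 did. Among all other tested names, 49.4% were called lower at 17 to 20 nt, 73.1% at 21 to 23 nt and 78.0% at 24 to 28 nt. In stack 5 the short names summed to 13807 and 6280 RPM in the controls and to 3237 and 3801 RPM under MC-LR. This was a 2.85-fold lower level, and 1.78-fold without control A. The long names summed to 1164 and 1244 RPM against 713 and 659 RPM, which is 1.75-fold lower, and 1.81-fold without control A. The gap between short and long names in the fold thus rested on control A. All other listed names went the other way, 2.49-fold lower at 17 to 23 nt and 3.36-fold lower at 24 nt or more. The short names of stack 5 were also the ones with a copy: 13 of the 14 were listed on chromosome 6 too, and 0 of the 5 long names were. The listed span there, 3201474 to 3201495, is shorter than 24 nt and cannot hold a long name. The split by copy is thus not separate from the split by length.

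**Figure D2:**
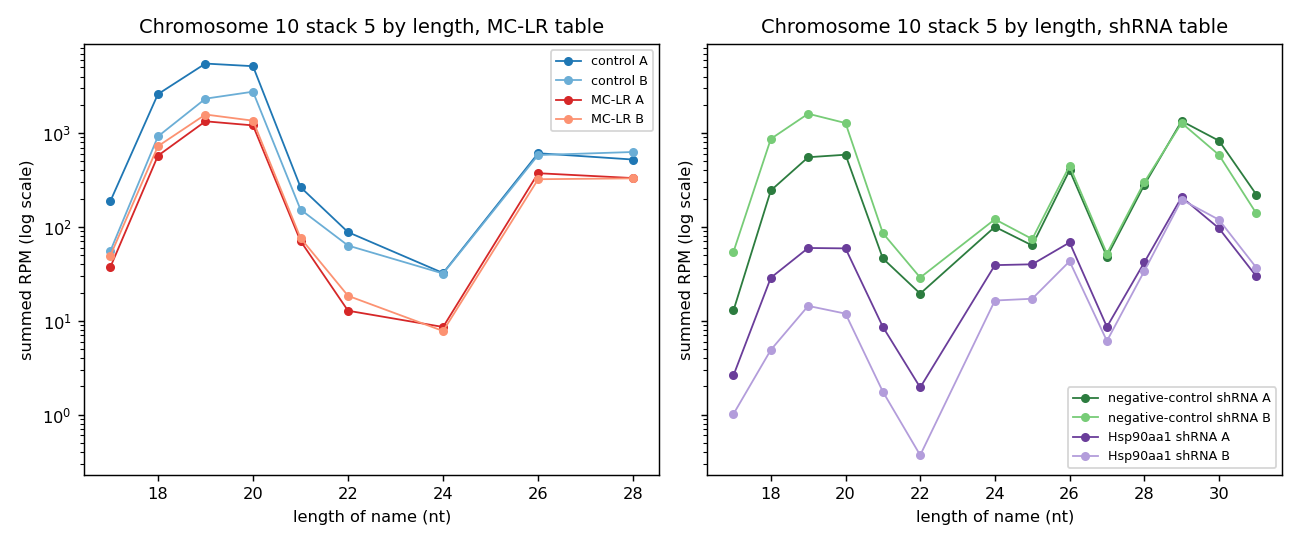
Summed RPM (log scale) of chromosome 10 stack 5 names against their length in nt, for the MC-LR table (left) and the shRNA table (right), 1 line per library. Below 24 nt the A and B libraries separate in the controls and in both shRNA groups, while the MC-LR libraries lie close to each other.

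Stack 4, most of whose names match the 18S copy, was lower by a larger factor than stack 5 (2.67-fold), a difference that was not tested. The size of this gap depended on the controls. Without control A the folds were 3.42 for stack 4 and 1.79 for stack 5, and without control B they were 3.65 and 3.56. Stack 4 summed to 965 and 904 RPM in the controls and 253 and 276 RPM under MC-LR, a 3.53-fold lower level. Its controls differed little. limma called 105 of its 128 names lower. Its most abundant name, piR-mmu-18138755 (25 nt), went from 60.7 and 47.4 RPM to 14.8 and 13.1 RPM (log2 fold change -1.87, SE 0.35, adjusted p = 0.00138 by limma). The largest fall of any member was that of piR-mmu-51381271 (25 nt), from 14.1 and 9.07 RPM to 1.51 and 1.68 RPM (-2.25, limma adjusted p = 6.71e-04).

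piR-mmu-48852643, which has the same 5′ end but is 19 nt long, was at 42.1 RPM in control A, 14.1 in control B, and 13.8 and 14.9 under MC-LR (-0.73, limma adjusted p = 0.157). Control A alone was high, and without it the log2 fold change was 0.02. Within this stack, too, the names of 17 to 23 nt differed between the controls (108 against 48.6 RPM) and those of 24 nt or more did not (857 against 855 RPM). The long names were 3.65-fold lower under MC-LR, and 3.64-fold without control A.

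The members of stacks 1 to 3 were low. Stack 2 leaves out 49 listed names over its position, first listed on chromosome 1, which summed to 687 and 456 RPM in the controls. Stack 1, the plus-strand match to 18S, summed to 83.2 and 76.2 RPM in the controls and 25.8 and 33.4 RPM under MC-LR (2.69-fold lower, 11 of 22 names called lower). Its most abundant name, piR-mmu-34300681, went from 9.57 and 8.87 RPM to 2.52 and 3.66 RPM (log2 fold change -1.33, limma adjusted p = 0.00781), a call that was lost without MC-LR A. Stack 2, whose 9 names were listed at no other place, summed to 75.6 and 56.2 against 16.5 and 21.9 RPM (3.43-fold lower, 5 of 8 tested names). From 31.6% to 54.5% of it was piR-mmu-49108410 (21 nt), at 41.2 and 22.0 RPM in the controls and 5.22 and 11.6 RPM under MC-LR (-1.82, limma adjusted p = 0.00624), also not called without MC-LR A. Stack 3 had 3 names and 9.91 and 11.7 against 3.87 and 4.73 RPM (2 of 3 called).

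**Figure D3:**
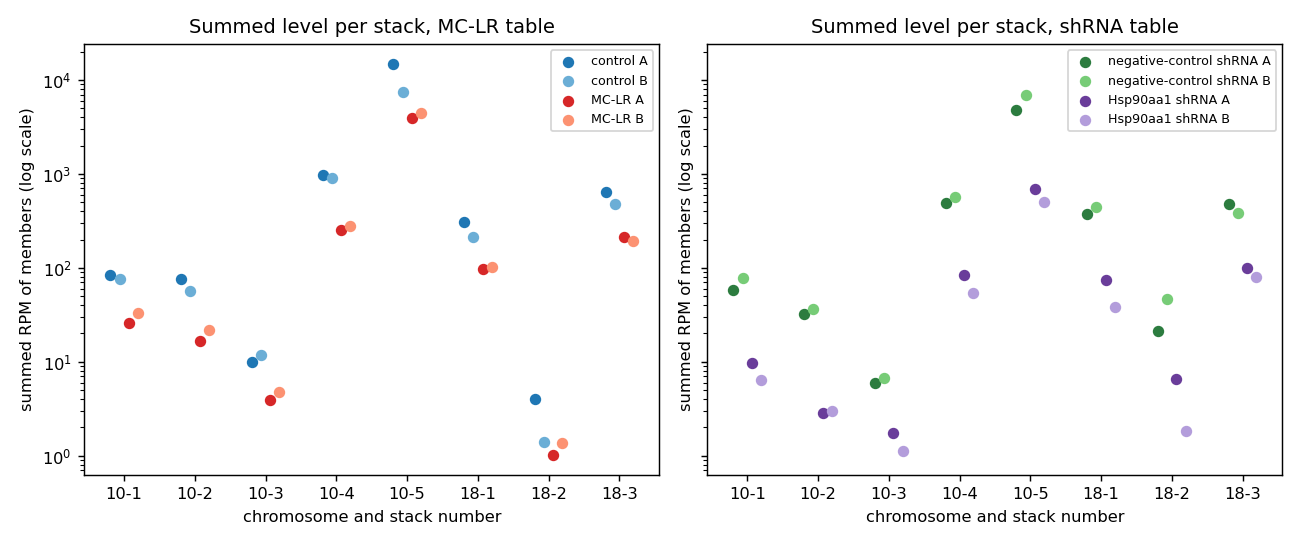
Summed RPM (log scale) of the members of each stack, labelled by chromosome and stack number, in the MC-LR table (left) and the shRNA table (right), 1 point per library. Stack 5 of chromosome 10 is the highest in every library, and the groups come closest in chromosome 18 stack 2 of the MC-LR table, where control B (1.41 RPM) is just above MC-LR B (1.37 RPM).

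At chromosome 18 the falls were spread over many names of similar level. Stack 3, the match to the 5′ part of the Mir6236 hairpin, summed to 646 and 475.6 RPM in the controls and 212 and 192 RPM under MC-LR (2.77-fold lower, 72 of 121 tested names called lower). Its most abundant name, piR-mmu-23401872 (27 nt), went from 21.5 and 15.3 RPM to 10.6 and 8.23 RPM (log2 fold change -0.89, SE 0.36, adjusted p = 0.0427 by limma). That call was lost when control A or either MC-LR library was left out. piR-mmu-35721219 (25 nt) had the largest fall at this locus, from 11.2 and 7.86 to 1.51 and 1.98 RPM (-1.93, limma adjusted p = 0.00141). piR-mmu-1279018 (30 nt), with the same 5′ end as piR-mmu-23401872, was at 14.1 and 12.1 against 8.08 and 6.25 RPM and did not pass (-0.79, limma adjusted p = 0.0554).

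Stack 1 of chromosome 18 summed to 310 and 213 RPM in the controls and 97.8 and 103 RPM under MC-LR (2.60-fold lower, 20 of 33 names). The most abundant name of the locus, piR-mmu-2011851 (22 nt), was at 29.8 and 16.9 against 10.6 and 6.86 RPM (log2 fold change -1.30, limma adjusted p = 0.0149), and this was not called without MC-LR B. piR-mmu-50666292 (22 nt) went from 24.1 and 16.7 to 5.05 and 6.71 RPM (-1.63, limma adjusted p = 0.00356). Stack 2 had 2 names, neither called, at 4.03 and 1.41 against 1.01 and 1.37 RPM, where control B lay beside MC-LR B.

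With the Hsp90aa1 shRNA both loci were lower still relative to their own control, and chromosome 10 more than chromosome 18 in the sums, a difference that was not tested. The chromosome 10 members summed to 5341 and 7615 RPM with the negative-control shRNA and to 791 and 566 RPM with the Hsp90aa1 shRNA, or 6478 ± 1608 against 678 ± 159 (mean ± SD, n = 2 each), a 9.55-fold lower level. The chromosome 18 members summed to 873.7 and 873.8 RPM against 179 and 119 RPM, a 5.85-fold lower level. The groups did not overlap at either locus (exact two-sided permutation p = 0.333 for each, the smallest possible). The 2 tables were scaled and listed separately, so the size of these falls was not tested against those under MC-LR.

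limma called 181 of 182 tested chromosome 10 members and 170 of 170 at chromosome 18 lower, where 99.5% of all tested names were called lower. None was higher, with 0 at an unadjusted p under 0.05, beside 0.219% of all names. The groups did not overlap for 371 of 371 members, beside 99.8% of all listed names lower and 0.213% higher, so the share is near the background. The median log2 fold change was -1.54 at chromosome 10, -1.43 at chromosome 18 and -1.66 over all names tested. The exception was piR-mmu-18346881 of stack 5 (25 nt), at 63.4 and 74.3 RPM with the negative-control shRNA and 40.0 and 17.2 RPM with the Hsp90aa1 shRNA (-1.35, SE 0.62, limma adjusted p = 0.0555). Without Hsp90aa1 shRNA A it passed.

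Scaled to the sum of the listed names, the median of all names moved from -1.66 to 0.02, that of chromosome 10 members to -0.15 and that of chromosome 18 members to 0.24. limma then called 0 members lower and 0 higher (17 and 4 at an unadjusted p under 0.05), beside 0.243% and 0.237% of all names. edgeR with TMM factors called 0 and 0 (15 and 9 unadjusted), beside 0.089% and 0.219%. DESeq2 called 1 lower and 0 higher (12 and 4 unadjusted) of the 50 members with an adjusted p, beside 3.0% and 0.766%. Relative to the list, 96 of 158 chromosome 10 members and 51 of 161 chromosome 18 members were negative, beside 7630 of 15632 names in all.

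The difference by length in stack 5 was wider here. The 16 names of 17 to 23 nt summed to 1464 and 3923 RPM with the negative-control shRNA and to 161 and 34.3 RPM with the Hsp90aa1 shRNA, a 27.6-fold lower level. The 15 names of 24 nt or more summed to 3287 and 3001 RPM against 532 and 468 RPM, a 6.29-fold lower level. Within each group the short names differed between the A and B libraries, and the long names differed little. The short-name fold was 15.0 without negative-control shRNA B, 16.8 without Hsp90aa1 shRNA B and 78.4 without Hsp90aa1 shRNA A. The long-name fold lay between 5.91 and 6.72 with any 1 library left out. A gap in this direction was not particular to stack 5. All other listed names were 9.45-fold lower at 17 to 23 nt and 6.35-fold lower at 24 nt or more. Those of 17 to 20 nt alone were 19.0-fold lower, and those of 29 to 35 nt 5.59-fold lower.

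The leading short names of the MC-LR table led here too, among the short ones, and fell furthest. piR-mmu-49575097 was at 562 and 1214 RPM with the negative-control shRNA and 55.7 and 10.9 RPM with the Hsp90aa1 shRNA (log2 fold change -4.99, SE 0.84, adjusted p = 7.83e-04 by limma). piR-mmu-49039860 was at 505 and 1487 against 50.8 and 12.4 RPM (-5.04, limma adjusted p = 7.58e-04). piR-mmu-35504565, of 18 nt, had the largest fall of any member, from 176 and 664 to 16.2 and 3.05 RPM (-5.36, SE 0.86, limma adjusted p = 6.96e-04). In each of them Hsp90aa1 shRNA B was the lowest library. Scaled to the list, they remained negative at -2.13, -2.17 and -2.63, with limma adjusted p = 0.302, 0.288 and 0.240.

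The most abundant member of the shRNA table was a long name, piR-mmu-63686828 (29 nt, chr10:82955384-82955412), at 1196 and 1152 RPM against 192 and 181 RPM (log2 fold change -2.65, SE 0.68, adjusted p = 0.00409 by limma). piR-mmu-31127795 (30 nt) was at 829 and 585 against 96.7 and 119 RPM (-2.69, limma adjusted p = 0.00348). Both share the 5′ end of those 3 short names, both were listed in the shRNA table alone, and both calls were lost without negative-control shRNA A. The call on piR-mmu-63686828 was also lost without negative-control shRNA B. Scaled to the list, their values were 0.27 and 0.23. Their level in the MC-LR libraries is not known from the files used here.

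Stack 4 summed to 495 and 570 RPM with the negative-control shRNA and 84.0 and 53.4 RPM with the Hsp90aa1 shRNA (7.75-fold lower, 110 of 110 tested names called lower). Its most abundant name here was piR-mmu-49787868 (22 nt), at 58.4 and 108 against 21.03 and 5.08 RPM (log2 fold change -2.80, limma adjusted p = 0.00432). piR-mmu-18138755, the leading name of this stack in the MC-LR table, was at 15.6 and 18.9 against 3.59 and 1.85 RPM (-2.33, limma adjusted p = 0.00130). The long names of the stack were 7.85-fold lower, and between 7.41 and 8.35-fold with any 1 library left out. The short names were 7.55-fold lower, but 5.004-fold without negative-control shRNA B, 4.83-fold without Hsp90aa1 shRNA B and 17.3-fold without Hsp90aa1 shRNA A. Among them the names of 17 to 20 nt were 14.8-fold and those of 21 to 23 nt 6.77-fold lower.

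Stack 1 summed to 57.5 and 77.1 against 9.58 and 6.46 RPM (8.39-fold lower, 27 of 27 tested names called lower; 9 names were below the filter). Stack 2 summed to 32.1 and 36.8 against 2.84 and 2.95 RPM (11.9-fold lower, 11 of 11). Its leading name piR-mmu-49108410 went from 8.03 and 16.6 to 0.449 and 0.185 RPM, or from 78 and 222 reads to 6 and 2 reads (log2 fold change -3.27, limma adjusted p = 5.82e-04). Stack 3 summed to 5.97 and 6.73 against 1.72 and 1.11 RPM (3 of 3 called).

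At chromosome 18, stack 1 was lower by a larger factor than stack 3, again without a test. Stack 1 summed to 373 and 444 RPM against 73.8 and 38.1 RPM (7.30-fold lower, 58 of 58 tested names) and stack 3 to 480 and 384 against 99.0 and 79.5 RPM (4.84-fold lower, 104 of 104). The most abundant name of the locus was piR-mmu-37613642 of stack 1 (21 nt), at 62.3 and 104 against 20.4 and 4.71 RPM (log2 fold change -2.88, limma adjusted p = 0.00371). The largest fall was that of piR-mmu-48996755 (19 nt), from 12.98 and 38.2 to 2.84 and 0.554 RPM (-3.26, limma adjusted p = 0.00115). piR-mmu-23401872 of stack 3 went from 19.6 and 15.5 to 4.04 and 4.25 RPM (-1.84, limma adjusted p = 0.00348). Stack 2 had 8 names and 21.2 and 46.0 against 6.59 and 1.85 RPM. Its fold of 7.98 was 5.03 without negative-control shRNA B, 5.11 without Hsp90aa1 shRNA B and 18.2 without Hsp90aa1 shRNA A. Its leading name piR-mmu-50574926 (19 nt) was at 7.72 and 23.3 against 2.99 and 0.646 RPM (-2.51, limma adjusted p = 0.00317).

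**Figure D4:**
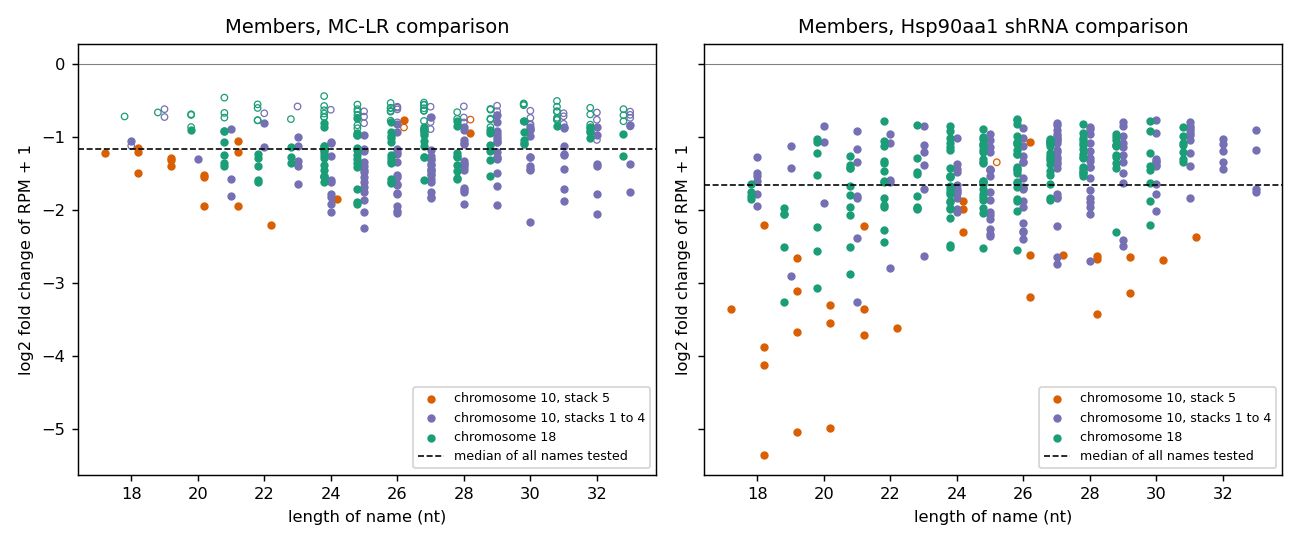
Log2 fold change of RPM + 1 against the length in nt of each tested member, for MC-LR against control (left) and Hsp90aa1 shRNA against negative-control shRNA (right); filled points passed limma at an adjusted p under 0.05, open points did not, and the dashed line is the median of all names tested, -1.17 and -1.66. The lowest points on the right are the short names of chromosome 10 stack 5, down to -5.36.

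Across the members, the log2 fold change rose weakly with length, with Spearman's rho of 0.16 over 336 members under MC-LR and 0.36 over 352 with the shRNA. On the plain RPM ratio, with no pseudocount, these values were -0.04 and 0.35, so the relation under MC-LR was not kept. A relation of the fold change to the mean level (rho of -0.52 and -0.82) was likewise not kept on the plain ratio (0.11 and -0.0011), since the pseudocount shrinks the change of low names. All these values are across names that overlap, share libraries and may share reads. The ratio of library A to library B within a group had a rho with length of -0.74 for the controls, 0.03 for the MC-LR libraries, 0.69 for the negative-control shRNA and -0.62 for the Hsp90aa1 shRNA. Short names were thus relatively higher in A in the controls and with the Hsp90aa1 shRNA and in B with the negative-control shRNA, and the MC-LR libraries showed no such relation.

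Library composition moved in the same way outside the loci. Names of 17 to 23 nt made up 36.6% and 22.0% of the RPM of all other listed names in the controls and 35.9% and 36.5% under MC-LR. In the shRNA table this share was 34.1% and 53.0% in the negative control and 44.1% and 20.4% after the Hsp90aa1 shRNA. In stack 5 the shares were 92.2% and 83.5%, then 81.9% and 85.2%, then 30.8% and 56.7%, then 23.2% and 6.84%. The libraries with a high short share inside stack 5 were, within each group of 2, those with a high short share outside it, and the part of this in the results was not tested. Stack 5 was mainly short in the MC-LR table and held many more long names in the shRNA table, where the long names with the highest levels were listed and in the MC-LR table were not.

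**Figure D5:**
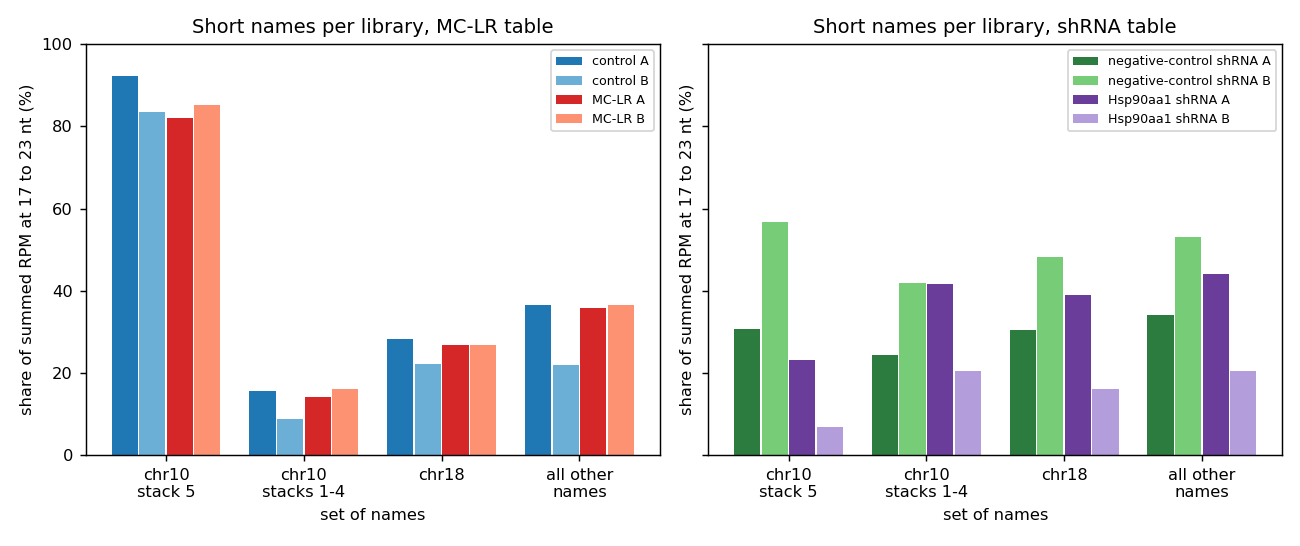
Share in percent of the summed RPM that came from names of 17 to 23 nt, in chromosome 10 stack 5, the other chromosome 10 stacks, the chromosome 18 locus and all other listed names, for the MC-LR table (left) and the shRNA table (right), 1 bar per library. Within each pair of libraries the A and B bars differ the same way inside and outside the loci in both control groups and with the Hsp90aa1 shRNA.

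Of the 258 members tested in both tables, 192 were called lower in both, 66 were called lower with the shRNA alone and 0 under MC-LR alone. Both calls were made for 74.4% of them, beside 78.5% of the 10339 names of any position tested in both tables, and the shRNA call alone for 25.6% beside 21.4%. Over both loci together, the split of the members was near that of the whole list, while the loci lay on opposite sides of it. At chromosome 10 the counts in the same order were 116, 23 and 0 of 139, with 83.5% called in both and 16.5% with the shRNA alone. At chromosome 18 they were 76, 43 and 0 of 119, with 63.9% called in both and 36.1% with the shRNA alone. The MC-LR and shRNA comparisons share no library. For the members tested in both, the median log2 fold changes were -1.35 and -1.56 at chromosome 10 and -0.98 and -1.39 at chromosome 18.

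Names on other RNA genes give the surroundings of these values. Of the names on ribosomal RNA genes, which include 140 members in the MC-LR table and 145 in the shRNA table, 3861 of 5100 were called lower under MC-LR (median log2 fold change -1.19) and 5938 of 5946 with the shRNA (-1.77). Transfer RNA names were lower in 81 of 121 cases (-1.13) and 499 of 502 (-1.70). MicroRNA gene names, which include 122 and 103 members through the Mir6236 hairpin, were lower in 333 of 468 cases with 1 higher (-1.07) and in 1147 of 1153 (-1.96). The members had the direction of the listed names on each of these kinds of gene. Nearly any set of listed names would share it. The log2 fold change was negative for 12957 of 13271 tested names under MC-LR and for 16820 of 16857 with the shRNA.

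MicroRNA genes that mark cell types were read from the same tables. Of 5 germ-cell genes (Mir34b, Mir34c, Mir449a, Mir449b and Mir449c) none was listed with MC-LR. Since the tables hold almost no names without a difference, a gene that is not listed may still be present in the libraries. The shRNA table listed Mir34b, Mir34c and Mir449a, at 1327 to 2641 RPM summed in the negative-control libraries and 163 to 634 RPM with the Hsp90aa1 shRNA. All 5 epithelial genes of the Mir200 and Mir141 clusters were listed in both tables, at 4690 to 6388 RPM in the controls, and 2408 to 2490 RPM under MC-LR, against 2591 to 3801 RPM in the negative control of the shRNA table and 110 to 399 RPM after the Hsp90aa1 shRNA. Of 3 leukocyte genes 2 were listed in the MC-LR table (18.9 to 20.8 against 8.08 to 12.3 RPM) and 1 in the shRNA table (102 to 204 against 13.3 to 33.0 RPM). Of 2 red cell genes 1 was listed in the MC-LR table (1.91 to 3.02 against 0.505 to 1.07 RPM) and 2 in the shRNA table (272 to 405 against 43.7 to 56.2 RPM). Of 4 muscle genes 2 were listed in the MC-LR table (220 to 407 against 158 to 165 RPM) and 4 in the shRNA table (148 to 250 against 10.9 to 29.9 RPM), and the liver gene Mir122 was listed in neither. These sums were lower in the same libraries as the members, as were almost all listed names, and their part in the result was not tested.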

How the data were processed

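Small RNA of mouse sperm was read from 2 deposited tables with 4 libraries each, grouped by sample title. Per the labels' protocols, Trizol was used for extraction and a NEBNext Ultra kit for the libraries. Bowtie2 2.2.3, HISAT2 2.1.0, HTSeq 0.6.0 and mm10 were used, per the submitters' processing notes; the role of each tool and how reads were trimmed are not given in those notes. The values the authors deposited are RPM. Every value was a whole multiple of that of 1 read of its library (100.0% within 0.01 of a whole read), so reads and totals were recovered. A floor of 3 reads is 0.205 to 0.605 RPM, and covers counting error only. All value columns were matched to a sample.

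Starts were taken as 0-based, and printed positions count from 1: 184 against 22 and 446 against 68 plus-strand rows then begin at a RefSeq mature microRNA start. A name listed at several loci was used once, by the stated rule. Rows differed in value for 22 of 155 such chromosome 10 members in the MC-LR table and 18 of 162 in the shRNA table. At chromosome 18 these counts were 1 of 155 and 2 of 156. With the row of the highest mean, 232 and 351 members were called lower, as in the main fit. In R 4.3.3, limma 3.58.1 with trend and robust estimation was run within each table on log2(RPM + 1). Names had to reach a group mean of 1 RPM (4 and 19 members left out), with Benjamini-Hochberg adjustment over all names at 0.05. A fold change on log2(RPM + 1) understates that of low names. Summed levels were tested with an exact permutation test (scipy 1.17.1). Alternatives were edgeR 4.0.16 and DESeq2 1.42.0 on recovered reads, other scalings, pseudocounts, filters and libraries left out. The crossed block was added after the data were seen.

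The members and lists were chosen with earlier results of these data known. Printed names are the most abundant, the largest falls and those near 0 of each locus, and names that passed in 1 comparison only. The leading names of chromosome 10 stacks 1, 2 and 4 and of chromosome 18 stack 2, and piR-mmu-18346881, were chosen after their values were seen. Library letters were not used as pairs: deviations of same-lettered libraries correlated at 0.07 for MC-LR and -0.61 for the shRNA. The genome sequence was not used here, so stacks 2, 3 and 5 of chromosome 10 are given by coordinates. Ends, first bases and copies were read from the tables, GENCODE M21 and RefSeq GRCm38.p6.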

Additional observations from a re-analysis of the deposited data

How the results depend on the processing

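Under edgeR on library totals, without a filter on low values, with the row of highest mean and without trend and robust estimation, every count of members called stayed within 1.5 times its main value, in both comparisons. The scale decided the rest. Scaling within the list, TMM factors and DESeq2 all scale to the listed names, so a fall that the list shares cannot show under them. Scaled within the list, the count of members called lower fell from 232 to 0 under MC-LR (140 to 0 at chromosome 10, 92 to 0 at chromosome 18) and from 351 to 0 with the shRNA (181 to 0 and 170 to 0), and it was also 0 in each under edgeR with TMM factors. DESeq2 called 0 under MC-LR, and 1 with the shRNA, at chromosome 10. The median log2 fold change of the members became 0.022, 0.038 and 0.082 under these 3 settings for MC-LR and 0.035, 0.012 and 0.067 for the shRNA. It was -1.53 and -2.60 with a pseudocount of 0.1 and -1.60 and -2.76 with edgeR on library totals. Scaled within the list, the fold by which the treated group was lower became 0.889 (chromosome 10) and 0.892 (chromosome 18) under MC-LR, and 1.26 and 0.786 with the shRNA. The chromosome 10 fold with the shRNA was 6.29 for the most abundant member alone and 6.33 over names that do not overlap.

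Leaving out 1 library gave 105 to 266 members lower under MC-LR (68 to 146 at chromosome 10, 29 to 124 at chromosome 18), lowest without MC-LR A or B. The summed fold then ranged from 1.90 to 3.56 at chromosome 10 and 2.27 to 3.16 at chromosome 18 under MC-LR. With the shRNA it ranged from 7.87 to 11.4 at chromosome 10 and from 4.87 to 7.31 at chromosome 18. With a replicate block for the library letter, 133 and 86 members at chromosome 10 and 18 were called lower under MC-LR, and 179 and 167 with the shRNA; among printed names the calls on piR-mmu-31058506 (MC-LR) and piR-mmu-63686828 (shRNA) were lost. The letters are not known to pair the libraries. With the letters crossed in the shRNA table, 182 and 170 were.

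Printed names that turned positive under the scaling settings follow, with values scaled within the list, under edgeR with TMM factors and under DESeq2 in that order. Under MC-LR these were piR-mmu-49575097 (0.044, 0.032, 0.077), piR-mmu-49039860 (0.30, 0.23, 0.28), piR-mmu-31058506 (0.82, 0.87, 0.91), piR-mmu-32285630 (0.83, 0.87, 0.91), piR-mmu-48852643 (0.79, 0.67, 0.73; from -1.49 to 0.023 with 1 library left out), piR-mmu-34300681 (0.0034, 0.075, 0.11), piR-mmu-2011851 (0.19, 0.22, 0.27), piR-mmu-23401872 (0.60, 0.67, 0.72) and piR-mmu-1279018 (0.66, 0.77, 0.82). With the shRNA they were piR-mmu-63686828 (0.27, 0.21, 0.29), piR-mmu-31127795 (0.23, 0.19, 0.28), piR-mmu-18346881 (1.52, 1.505, 1.56), piR-mmu-18138755 (0.18, 0.14, 0.20) and piR-mmu-23401872 (0.80, 0.80, 0.88). piR-mmu-49787868 had 0.044 with TMM factors and 0.084 with DESeq2, and piR-mmu-37613642 had 0.028 with DESeq2. The cause was not tested beyond the change of scale itself. Depth limits the low names: the median listed name had 5 reads in Hsp90aa1 shRNA B and 98 in control A.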

Other observations

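Further names were listed inside the chromosome 10 window and were not members, because their first listed position was on chromosome 1 (chr1:56782330-56782385). There were 49 in the MC-LR table and 56 in the shRNA table, all on the minus strand over stack 2. In the MC-LR table they summed to 687 and 456 RPM in the controls and 231 and 216 RPM under MC-LR, a 2.56-fold lower level, and limma called 36 of 49 lower. With the Hsp90aa1 shRNA they were 8.12-fold lower, and limma called 55 of 55 tested names lower. Both shares are near those over all tested names, 73.1% under MC-LR and 99.5% with the shRNA. Stack 2 as described above is therefore the part of that position that has no copy on chromosome 1.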
